A study of Mus musculus with 12 samples.

Results

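The genes of the first steps of B cell receptor signaling were followed in mouse B cell acute lymphoblastic leukemia (B-ALL) cells treated with LY2090314, a small-molecule inhibitor of GSK3β. The genes were taken by name, as a list of functionally related genes: *Cd79a*, *Cd79b*, *Blnk*, *Syk*, *Btk*, *Lyn*, *Blk*, *Plcg2* and *Bank1*. They are 9 of 41444 genes in the expression table, and all 9 were among the 11536 genes with a mean of at least 3 over the samples compared, which were the genes tested. The cells were bone marrow pre-B cells of *Ctnnb1* fl/fl mice that had been transformed with *BCR-ABL1* and grown without IL-7. The samples described here carried the ERT2 vector, which has no Cre, so that the β-catenin gene stayed intact, and all had received 1 µM 4-OHT, the active form of tamoxifen, for 2 days. The control group had 4-OHT alone (3 samples), and the treated group also had LY2090314 at 40 nM for 1 day (3 samples). Samples with Cre-ERT2 are not analysed here, so that no value below says whether a change needs β-catenin.

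The B cell receptor has no enzyme of its own. Its immunoglobulin chains are held by the heterodimer of CD79A and CD79B, whose cytoplasmic tails carry the tyrosine motifs (ITAMs) that start the signal. Kinases of the Src family such as LYN and BLK phosphorylate these tyrosines, SYK binds to them and becomes active, and the adaptor BLNK then brings BTK and phospholipase Cγ2 together at the membrane. In pre-B cells the same apparatus works below the pre-B cell receptor, in which the immunoglobulin μ chain pairs with a surrogate light chain made of λ5 (*Igll1*) and VpreB.

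Expression was given as rlog values, which are log2 read counts scaled between libraries, with the values of genes with few reads drawn towards their mean. Differences of low-expressed genes are thereby understated, the depth of the libraries is unknown, and values of different genes are not on a common scale for transcript length. Samples were numbered in the order of their columns. The column names of treated samples 1 and 2 open with the same number, followed by A and B, whereas that of treated sample 3 opens with another. The labels do not say what this number stands for. Whether treated samples 1 and 2 are independent of each other is therefore unknown, and the main tests count them as separate samples. Across the genes tested, the SD of the difference between 2 samples was 0.185 to 0.253 within groups and 0.581 to 0.622 between groups. The study's legend describes the replicates as coming from separate mice. Neither the labels nor the columns name the mouse of a sample, so that control and treated samples could not be matched by mouse. At the level of RNA, *Myc* and *Ctnnb1* were lower in treated samples (differences −2.64 and −0.35), and *Gsk3b* differed by 0.13, short of the threshold (limma, adjusted p = 0.051). RNA values measure neither the activity of GSK3β nor the β-catenin protein, which the study reports to accumulate with LY2090314.

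Of the 9 genes, 4 fell with LY2090314 (*Cd79b*, *Blk*, *Bank1* and *Blnk*), 2 rose (*Syk* and *Plcg2*) and 3 did not pass the threshold (*Cd79a*, *Btk* and *Lyn*). The threshold was an adjusted p under 0.05 from limma, adjusted over all 11536 genes. Among all genes tested 50.1% passed it, 24.8% as higher and 25.3% as lower, so that 6 of 9 is a share near the background and says little about the list as such. The median difference of the 9 genes was −0.14, against 0.012 for all genes tested, and their median size of change was 0.44, against 0.24. Of the 4 falls, 3 stood further out than the rises: 4.33% of all genes tested had a larger difference in either direction than *Bank1*, 5.92% than *Blk* and 6.95% than *Cd79b*, against 22.6% for *Syk*, 25.7% for *Blnk* and 39.2% for *Plcg2*. All 6 also passed at an adjusted p under 0.01 (34.9% of all genes tested), and 2 of them, *Blk* and *Bank1*, had a log2 difference of at least 1 (6.01% of all genes tested). For 7 of the 9 genes the ranges of the treated and the control group were separate, as they were for 58.6% of all genes tested. With 3 samples against 3, p = 0.10 is the smallest value of the exact two-sided permutation test, and each of these 7 genes reached it.

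**Figure D1:**
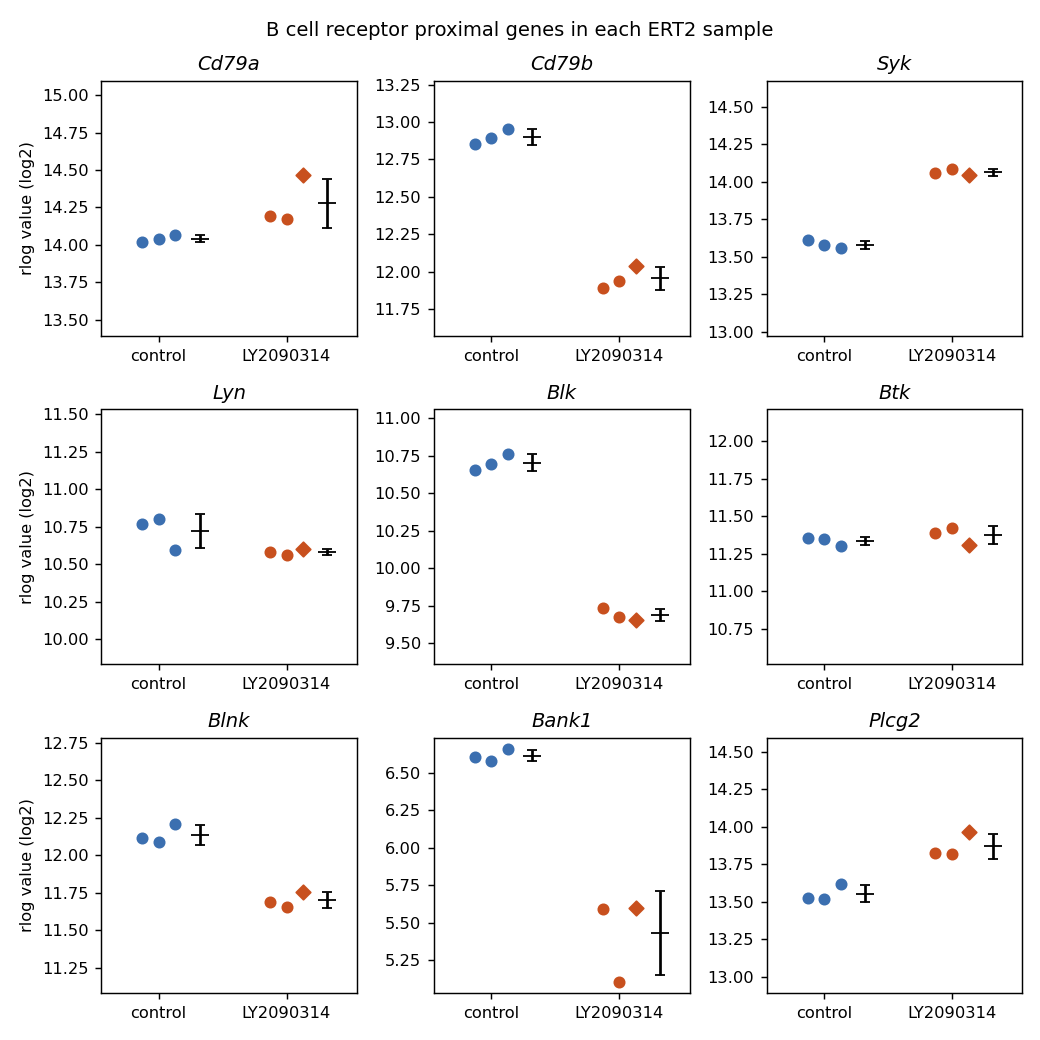
The rlog value (log2, y axis) of each of the 9 genes is plotted for the 3 control and the 3 LY2090314 samples, with the mean and SD in black and treated sample 3 as a diamond. Every panel spans the same range of log2 units, and the groups overlap for *Lyn* and *Btk* alone.

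The receptor heterodimer did not move as a unit. *Cd79b* (ENSMUSG00000040592, chr11:106311341-106314762, minus strand) had rlog values of 12.85, 12.90 and 12.95 in the control samples and 11.89, 11.94 and 12.04 in the treated samples. Each treated sample lay below each control sample, with a gap of 0.81 between the groups. *Cd79b* fell by 0.94 (difference −0.94, standard error 0.056, adjusted p = 6.7e-06), to 52.0% of the control level (95% interval 47.5% to 56.9%). *Cd79a* (ENSMUSG00000003379, chr7:24897381-24902197, plus strand), which encodes the partner chain, was at 14.02, 14.04 and 14.07 in control and at 14.19, 14.17 and 14.47 in treated samples. All 3 treated values were above the controls, but treated sample 3 stood 0.27 above the next. The difference of 0.23 (95% interval 0.035 to 0.43) did not pass the threshold (adjusted p = 0.053). Without treated sample 3 it was smaller, at 0.14, and passed (adjusted p = 0.031).

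Of the Src family kinases in the list, *Blk* was lower and *Lyn* was not shown to differ. *Blk* (ENSMUSG00000014453, chr14:63372836-63417037, minus strand), a kinase found mainly in the B lineage, was at 10.65, 10.70 and 10.76 in control and at 9.73, 9.67 and 9.65 in treated samples. Its groups were 0.92 apart, with an SD of 0.056 and 0.041 within them. *Blk* fell by 1.02 (difference −1.02, standard error 0.052, adjusted p = 2.9e-06), to 49.4% of the control level. *Lyn* (ENSMUSG00000042228, chr4:3678115-3813122, plus strand), which acts both in starting the signal and in its inhibition, was at 10.77, 10.80 and 10.59 in control and at 10.58, 10.56 and 10.60 in treated samples. Control sample 3 lay within the treated range, so that the groups overlapped. The difference of −0.14 (95% interval −0.29 to 0.0046) did not pass the threshold (adjusted p = 0.097). Without control sample 3 it was −0.20 and passed (adjusted p = 0.014). *Lyn* shares 248 exon bases with *Gm26857* on the other strand, which is not analysed here, and no other gene of the list shares exon sequence with an annotated gene.

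*Syk*, the kinase that docks on the phosphorylated ITAMs, and *Plcg2*, the phospholipase that produces the second messengers of the pathway, rose. *Syk* (ENSMUSG00000021457, chr13:52583173-52648792, plus strand) was at 13.61, 13.58 and 13.56 in control and at 14.06, 14.09 and 14.04 in treated samples. The spread within each group was small (SD 0.027 and 0.023) beside a gap of 0.43 between them. *Syk* rose by 0.48 (standard error 0.051, adjusted p = 0.00015), to 140% of the control level. *Plcg2* (ENSMUSG00000034330, chr8:117498291-117635142, plus strand) was at 13.53, 13.52 and 13.62 in control and at 13.83, 13.82 and 13.97 in treated samples. Treated sample 3 was again the highest, and the groups were 0.20 apart. *Plcg2* rose by 0.31 (standard error 0.063, adjusted p = 0.0042), a 1.24-fold higher level, and by 0.27 without treated sample 3.

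*Btk* (ENSMUSG00000031264, chrX:134542336-134583570, minus strand), the Tec family kinase that phosphorylates phospholipase Cγ2, was at 11.35, 11.35 and 11.30 in control and at 11.39, 11.42 and 11.31 in treated samples. These ranges overlapped. The difference was 0.04 (adjusted p = 0.54), with a 95% interval of −0.074 to 0.15.

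Both adaptors fell. *Blnk* (ENSMUSG00000061132, chr19:40928927-40994535, minus strand) was at 12.11, 12.09 and 12.21 in control and at 11.69, 11.65 and 11.76 in treated samples. Its groups were 0.33 apart, with an SD of 0.066 and 0.053 within them. *Blnk* fell by 0.44 (difference −0.44, standard error 0.053, adjusted p = 0.00032), to 73.8% of the control level. *Bank1* (ENSMUSG00000037922, chr3:136053363-136326066, minus strand), a B cell scaffold with ankyrin repeats that binds LYN, was at 6.60, 6.58 and 6.66 in control and at 5.59, 5.11 and 5.60 in treated samples. Treated sample 2 was lower than the others, and all 3 were below the controls. *Bank1* fell by 1.18 (difference −1.18, standard error 0.14, adjusted p = 0.00029), the largest difference among the 9 genes with the widest 95% interval on the log2 scale, from 35.1% to 55.3% of the control level. Without treated sample 2 the difference was −1.02. *Bank1* also had the lowest rlog values of the list, so that its fall is the one most affected by the shrinkage of the rlog values.

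**Figure D2:**
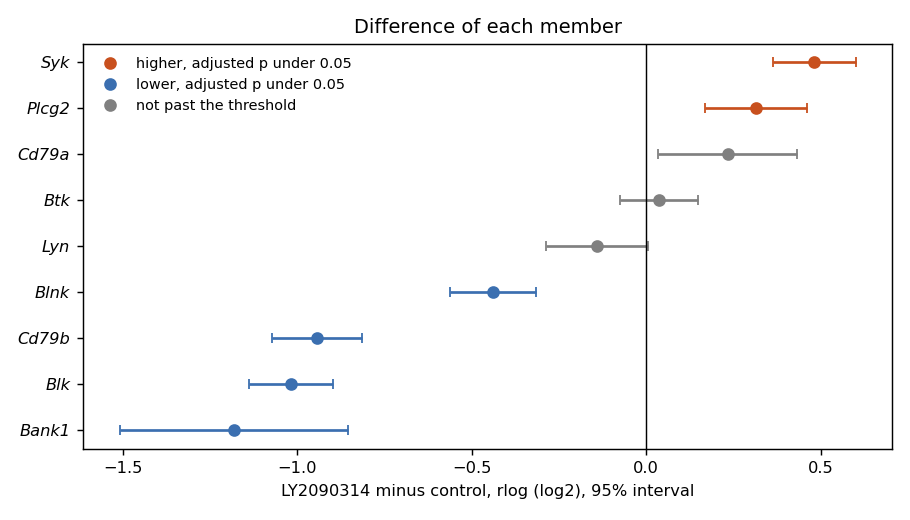
The x axis gives the difference between LY2090314 and control samples (rlog, log2) for each of the 9 genes, and bars give the 95% interval from limma. *Blnk*, *Cd79b*, *Blk* and *Bank1* lie below 0, *Syk* and *Plcg2* above 0, and *Lyn*, *Btk* and *Cd79a* did not pass the threshold.

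To set the levels of different genes beside each other, the mean rlog value was reduced by the log2 of the total exon length of the gene in kilobases. On this per-length scale the order in control samples was *Cd79a* (13.50), *Cd79b* (12.38), *Plcg2* (11.45), *Syk* (10.35), *Btk* (9.68), *Blnk* (9.55), *Blk* (9.27), *Lyn* (8.70) and *Bank1* (3.71). In treated samples *Plcg2* (11.77) stood above *Cd79b* (11.44), and *Lyn* (8.55) above *Blk* (8.26). The exon length counts all annotated isoforms and can exceed the length of the transcripts expressed. That error was not measured, differs between genes and is not part of the SD between samples. The order between genes is therefore approximate throughout. Gaps as small as that between *Btk* and *Blnk*, whose SDs in control samples were 0.029 and 0.066, do not set an order.

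Promoter sequences, credited to RefSeq (GRCm38.p6), were found for 6 of the 9 genes (*Bank1*, *Blnk*, *Btk*, *Cd79a*, *Plcg2* and *Syk*), while *Blk*, *Cd79b* and *Lyn* had no entry. The windows searched are the 250 bases before the start annotated by RefSeq, which is not always that of the GENCODE positions given above. It is the same for *Bank1* and lies 16 bases upstream of the GENCODE start for *Plcg2*, but 116 bases downstream of it for *Cd79a*, 264 for *Syk*, 314 for *Blnk* and 430 for *Btk*. The windows of *Cd79a*, *Syk* and *Blnk* therefore hold bases of GENCODE exons and are not printed. The sequences are shown for *Plcg2*, which rose, and *Bank1*, which fell, on the strand of the gene, 5′ to 3′. Capitals mark 4 sets of letters, searched on both strands: CANNTG (E-box), CAAAG (core of TCF/LEF sites), TGGGAA (core of Ikaros sites) and CCCNNGGG (core of EBF sites).
*Plcg2*, chr8:117498025-117498274, plus strand, TGGGAA and then 2 E-boxes: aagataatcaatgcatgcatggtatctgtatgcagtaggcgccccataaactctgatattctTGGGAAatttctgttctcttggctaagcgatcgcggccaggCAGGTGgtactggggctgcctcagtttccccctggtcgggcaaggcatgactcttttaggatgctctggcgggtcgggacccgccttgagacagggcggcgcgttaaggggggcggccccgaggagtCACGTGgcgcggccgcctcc
*Bank1*, chr3:136326067-136326316, minus strand, 1 E-box and then CCCCTGGG: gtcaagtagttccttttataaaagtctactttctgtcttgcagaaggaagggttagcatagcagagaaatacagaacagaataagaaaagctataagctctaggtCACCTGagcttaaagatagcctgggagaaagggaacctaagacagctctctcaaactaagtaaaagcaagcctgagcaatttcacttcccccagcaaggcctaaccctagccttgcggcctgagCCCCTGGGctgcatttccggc

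*Syk* has a second annotated start, which gives 7 windows for the 6 genes. An E-box was present in 7 of 7 windows, against 66.2% of 32536 windows of the same length across all genes. The TCF/LEF letters were present in both windows of *Syk* and in none of the other 5, against 48.7% of all windows. TGGGAA was found in *Btk* and *Plcg2* (21.6% of all windows) and CCCNNGGG in *Bank1* (11.9%). The ETS core GGAA, which TGGGAA contains, was in 6 of 7 windows and in 93.4% of all windows. These are matches of letters in one short window and show no binding.

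The immunoglobulin and surrogate chains that the CD79 heterodimer carries were mostly lower. Of 10 chains listed, 7 were tested, of which 5 fell, 1 rose and 1 did not pass the threshold, and their median difference was −1.17. The shares over all genes tested were 25.3% lower and 24.8% higher. *Ighm*, the μ heavy chain, was at 15.49, 15.50 and 15.60 in control and at 14.29, 14.32 and 14.40 in treated samples. It fell by 1.20 (difference −1.20, standard error 0.070, adjusted p = 6.0e-06), to 43.6% of the control level. The surrogate light chain genes *Igll1*, *Vpreb1* and *Vpreb2* fell by 1.42, 1.27 and 1.17, with standard errors of 0.075, 0.065 and 0.072. *Vpreb1* and *Vpreb2* are near-identical, so that reads may be split between them, whereas *Vpreb3* differed by −0.20 (adjusted p = 0.069). *Ighd*, the δ heavy chain, fell by 0.54 (adjusted p = 0.028). *Igkc*, the constant region of the κ light chain, went the other way: it was at 8.40, 8.56 and 8.55 in control and at 11.55, 11.55 and 11.56 in treated samples. *Igkc* rose by 3.05 (standard error 0.057, adjusted p = 2.3e-08), an 8.27-fold higher level. The value of a constant region does not tell a rearranged light chain from a germline transcript. *Iglc2* was under the limit on the mean, and *Iglc1* and *Iglc3* are not analysed here.

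Among the 4 coreceptor genes reported, *Cd38* and *Pik3ap1* fell and none rose, where 25.3% of all genes tested passed as lower and 24.8% as higher. *Pik3ap1*, the adaptor BCAP that recruits PI3 kinase, fell by 0.58 (difference −0.58, adjusted p = 5.5e-05). *Cd38* fell by 0.73 (difference −0.73, adjusted p = 0.00086). *Cd81* (difference −0.11, adjusted p = 0.073) and *Cr2* (difference −0.12, adjusted p = 0.59) did not pass.

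**Figure D3:**
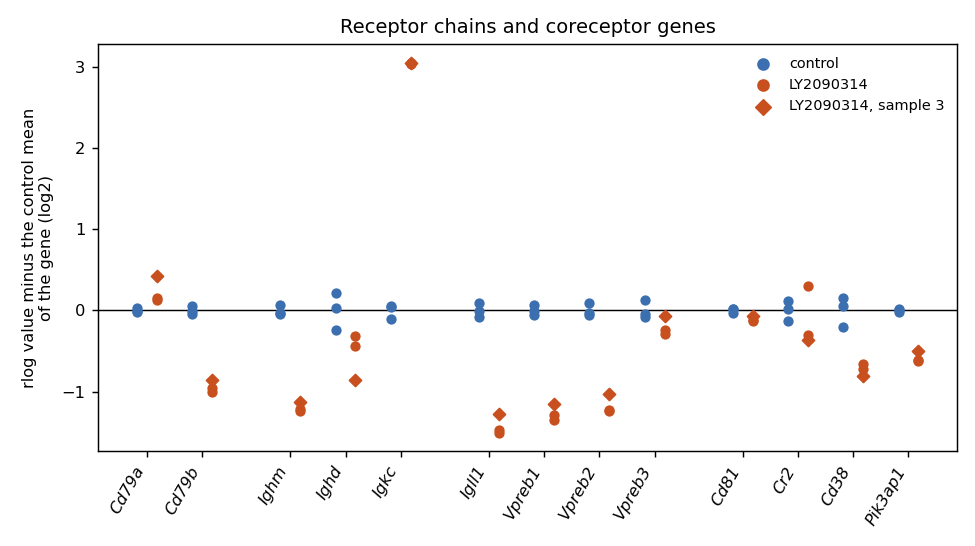
The y axis gives the rlog value of each sample minus the control mean of the gene (log2), for *Cd79a* and *Cd79b*, the immunoglobulin and surrogate chains and the coreceptor genes, with controls in blue and LY2090314 samples in orange. *Cd79b*, *Ighm*, *Igll1*, *Vpreb1* and *Vpreb2* lie lower in treated samples, with differences from −0.94 to −1.42, and *Igkc* lies higher, at 3.05.

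Several members belong to families of which other genes are used mainly in T cells or in most tissues, and 10 of the 12 such relatives reported were tested. Of these 10, 5 rose, 2 fell and 3 did not pass the threshold, where 24.8% of all genes tested passed as higher and 25.3% as lower. *Lck*, the Src family kinase best known from T cells, was at 11.40, 11.36 and 11.47 in control and at 12.32, 12.26 and 12.51 in treated samples, so that it rose by 0.95 (standard error 0.071, adjusted p = 2.2e-05). *Fyn* rose by 0.52 (adjusted p = 6.3e-05), while *Yes1* fell by 0.47 from values close to the limit on the mean. *Fgr* and *Src* did not pass. Within this family the changes thus ran from the fall of *Blk* to the rise of *Lck*.

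*Zap70*, the relative of SYK that T cells use, was at 6.50, 6.40 and 6.82 in control and at 9.33, 9.35 and 9.47 in treated samples. It rose by 2.81 (standard error 0.12, adjusted p = 1.1e-06), a 7.0-fold higher level. *Plcg1*, the relative of *Plcg2*, was at 11.16, 11.16 and 11.20 in control and at 9.13, 9.50 and 8.90 in treated samples. The treated samples were less uniform (SD 0.30) but all lay below the controls, and *Plcg1* fell by 1.99 (standard error 0.13, adjusted p = 1.3e-05), to 25.2% of the control level. *Tec*, of the family of BTK, rose by 0.59 (adjusted p = 0.00021). Of the relatives of *Blnk*, *Clnk* rose by 1.56 (adjusted p = 3.1e-06) from a low value of 3.41, and *Lcp2*, the SLP-76 adaptor of T cells, differed by 0.27 (adjusted p = 0.15). *Bmx* and *Txk* were under the limit on the mean.

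**Figure D4:**
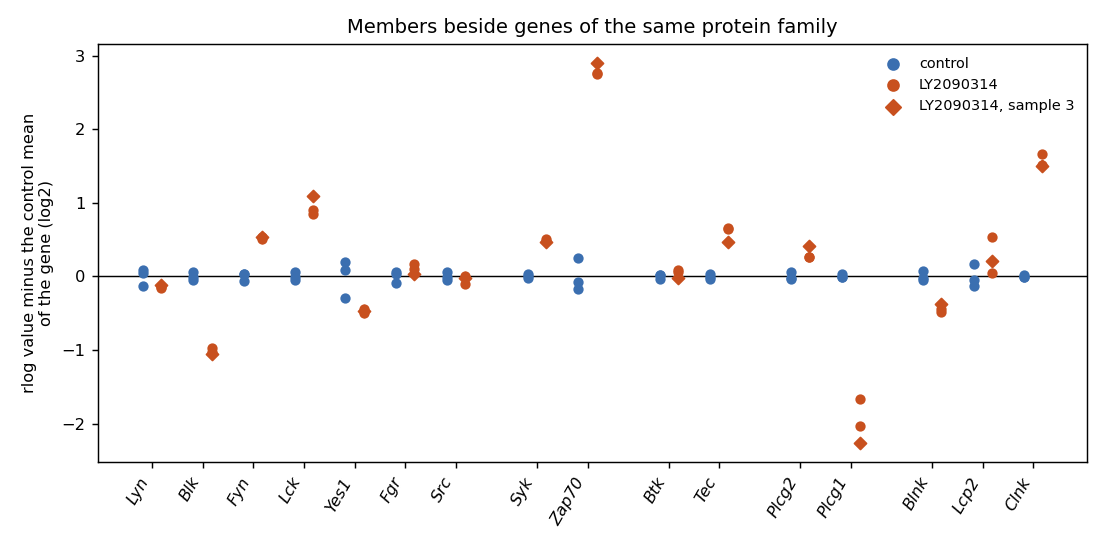
The y axis gives the rlog value of each sample minus the control mean of the gene (log2) for members and their relatives, grouped as Src family, SYK family, Tec family, phospholipases Cγ and BLNK family. *Blk* and *Plcg1* lie lowest in treated samples, at differences of −1.02 and −1.99, and *Zap70* highest, at 2.81.

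The other steps of the pathway were described by lists of genes chosen for their function. The counts of each list stand beside 24.8% of all genes tested that passed as higher and 25.3% as lower. Of 16 further adaptors and exchange factors, 8 rose and 5 fell. The largest rises were those of *Lat* (1.34), the membrane adaptor of the T cell receptor, and *Nck2* (1.26), and the largest falls those of *Themis2* (−1.53) and *Gab1* (−1.42). Of 16 genes of PI3 kinase, lipid and calcium signaling, 7 rose and 3 fell. *Pik3r5*, a regulatory subunit of PI3 kinase γ, rose by 2.44 and *Itpr2*, a receptor for the IP3 that phospholipase C makes, by 0.68. *Orai1*, the calcium channel of the plasma membrane, fell by 0.65 and *Itpr3* by 0.21.

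Below PLCγ2, 10 of 11 genes of protein kinase C, the NF-κB branch and calcineurin were tested, of which 6 rose and 2 fell. *Prkcb*, a protein kinase C activated by the diacylglycerol that phospholipase C makes, rose by 0.76 (adjusted p = 5.3e-05). *Malt1* and *Bcl10*, which lead to NF-κB, rose by 0.53 and 0.28. *Ppp3cb*, a catalytic subunit of calcineurin, fell by 0.17 and *Nfatc3*, a transcription factor under its control, fell by 0.14. The other calcineurin genes listed went the other way. *Ppp3ca*, also a catalytic subunit, rose by 0.51 (limma, adjusted p = 0.00033) and *Ppp3r1* by 0.13 (limma, adjusted p = 0.044). Among 19 inhibitors tested of 21 listed, 9 rose and 5 fell. For these 2 lists too, the shares over all genes tested were 24.8% higher and 25.3% lower. *Cd22*, an inhibitory receptor of B cells, fell by 1.10. *Csk*, the kinase that inhibits the Src family, fell by 0.45. *Sla2*, an adaptor that lowers antigen receptor signaling, rose by 1.66 and *Siglecg*, an inhibitory receptor related to CD22, by 1.08.

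Of 12 genes known to respond within hours of receptor ligation, 9 were tested, of which 2 rose and 3 fell. *Cd69* rose by 1.74 (adjusted p = 3.0e-07) and *Jun* by 0.55 (adjusted p = 0.0024), whereas *Myc* and *Egr1* were lower (differences −2.64 and −0.49), with *Junb* as the third. *Nr4a1*, a common readout of receptor signaling, had a difference of −0.56 (adjusted p = 0.12) with groups that overlapped. Over all 8 lists, 65 of 91 genes tested passed the threshold, 38 as higher and 27 as lower, where 50.1% of all genes tested passed it, 24.8% as higher and 25.3% as lower. The 91 genes of the lists had a median difference of 0.074, against 0.012 over all genes tested.

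**Figure D5:**
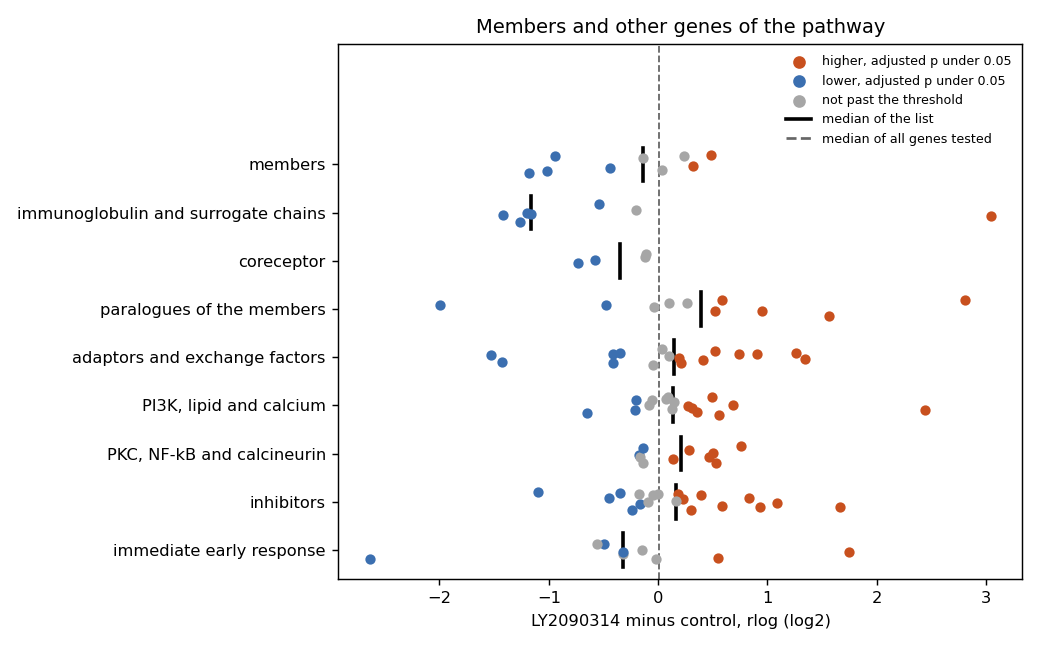
Each point is a gene, placed by its difference between LY2090314 and control samples (rlog, log2, x axis) in its list, with the black bar at the median of the list and the dashed line at the median of all genes tested. The chains of the receptor have the lowest median, −1.17, and every list holds genes that fell, and all but the coreceptor list also genes that rose.

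The labelled cell type was checked against markers. All 13 pre-B markers reported were above the limit on the mean, *Cd79a* and *Cd79b* among them, and 8 of these fell while 2 rose. Of all genes tested, 25.3% passed the threshold as lower and 24.8% as higher. *Ighm*, *Igll1* and *Vpreb1*, described above as chains, are also among the pre-B markers, so that this check is not separate from the receptor genes. The summed level of the pre-B markers, as log2 of the sum of linear values, was 17.28 to 17.32 in control and 16.70 to 16.84 in treated samples. This sum includes *Ighm*, whose mean was the highest of these markers in control samples, at 15.53, and was 14.34 in treated samples. The 9 T and NK cell markers, such as *Cd3e* and *Cd4*, and the 5 erythroid markers were all under the limit in both groups, with summed levels of T and NK cell markers of 3.47 to 3.53 in control and 3.39 to 3.55 in treated samples. These summed levels overlapped between the groups, but they add up values under the limit, such as means of −2.28 for *Cd3e* in both groups. Their overlap therefore says little about the content of T and NK cells. Of 10 myeloid markers, 8 were under the limit, with *Mpo*, *Elane*, *S100a8* and *S100a9* listed at 0, but *Ly6g* rose by 2.96 and *Lyz2* by 0.53, and the summed level went from 6.14 to 6.32 in control to 7.42 to 7.48 in treated samples. Of 6 plasma cell markers, 4 rose and *Sdc1* fell, with *Prdm1* higher by 4.46. The summed level was 13.21 to 13.24 in control and 14.64 to 14.70 in treated samples. This sum mostly follows *Irf4* and *Xbp1*, whose means were already 12.75 and 11.19 in control samples and were 14.16 and 12.57 in treated samples. *Jchain* rose by 0.31 from a low value, and *Tnfrsf17* was under the limit. The part of the cell types marked in the changes of the receptor genes was not tested, and in bulk samples fewer cells of a type and less RNA per cell cannot be told apart.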

How the data were processed

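The authors sequenced polyadenylated RNA (stranded kit, paired ends). Per the labels and the study's methods, transcripts were quantified with Salmon, reads aligned with STAR to GRCm38 (GENCODE vM24) and DESeq2 was used. The authors deposited 1 table of log2 values (rlog: counts divided by size factors and shrunk for genes with few reads) for 41444 genes. Its options and the strand setting of the counting are not given in the sources used here. The study's legend gives a shorter LY2090314 exposure than the labels, which are followed.

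By name, 3 columns were assigned to ERT2 control cells and 3 to ERT2 cells with LY2090314. The 6 remaining columns, of 12, name Cre and LY and were not used. For the 11536 genes whose mean over these samples reached 3, limma 3.58.1 (R 4.3.3, mean-variance trend, Benjamini-Hochberg over all genes tested, threshold 0.05) gave differences, standard errors and 95% intervals. It was tested on simulated data. Symbols were found for 41157 identifiers, and positions are from GENCODE vM21 (GRCm38). Without read counts, depth is unknown.

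All lists and tests were chosen with earlier results of these data known. Named are the 9 genes, the chains and coreceptor genes, and up to 2 called genes with the largest rise and the largest fall of each other list. *Lck*, *Fyn*, *Tec*, *Fgr*, *Src*, *Lcp2*, *Bcl10*, *Ppp3ca*, *Ppp3r1*, *Junb*, *Nr4a1* and the single cell type markers were named after their values were seen. Some genes of the lists are not reported here and were left out of the counts. Alternatives concerned the trend, the limit on the mean (none or 5), the scaling (median or quantile) and each sample left out. Others counted the treated samples whose column names open with the same number as 1 sample, or changed the call rule. The call rules were an adjusted p under 0.01, or a log2 difference of at least 1.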

Additional observations from a re-analysis of the deposited data

How the results depend on the processing

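Of the 9 genes, 6 passed the threshold, where 50.1% of all genes tested passed it. The number among the 9 fell to 2 (*Blk* and *Bank1*) once differences under 1 (log2) were excluded. It was 6 or 7 under each of the other 13 alternatives. The same limit left 18 of the 65 other pathway genes called and 693 of the 5778 called among the 11536 genes tested. With each sample left out in turn, 6 to 7 of the 9 genes and 54 to 65 of the 91 other pathway genes tested passed. Of the 11536 genes tested, 4734 to 6228 did. *Cd79b*, *Blnk*, *Syk*, *Blk*, *Plcg2* and *Bank1* kept their direction and passed in each of 12 alternative fits. Their highest adjusted p (limma) was 0.026, for *Plcg2*. *Cd79a* passed in 3 of the 12: without treated sample 3 (0.14, adjusted p = 0.031), with quantile normalization (0.18, adjusted p = 0.0077) and with a limit of 5 on the mean (0.23, adjusted p = 0.048), and its adjusted p was at most 0.13. *Lyn* passed without control sample 3 (−0.20, adjusted p = 0.014), and over its alternatives the adjusted p reached 0.29. *Btk* passed in none (adjusted p 0.20 to 0.88, limma). The causes were not tested. The difference of a gene moved by a median of −0.037 over all genes with quantile normalization and by −0.026 with centring. No paired analysis was possible because nothing in the names of the columns links them to the replicate numbers of the labels. Depth is unknown, so which values it limits was not assessed.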

Other observations

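A difference between the rlog values of 2 genes in the same library does not move when the whole library is shifted by a constant, as by centring. It can move with quantile normalization. These pairs were chosen after the values were seen, so that they describe the libraries and support nothing further. For *Cd79b* minus *Cd79a*, the chains of the signaling heterodimer, this difference was −1.17, −1.14 and −1.11 in control and −2.30, −2.23 and −2.42 in treated samples. It was therefore lower by 1.18 with LY2090314 (change of −1.18). For *Ighm* minus *Cd79a* it went from 1.49 ± 0.040 to 0.059 ± 0.11 (SD, n = 3 each), and for *Igkc* minus *Ighm* from −7.03 ± 0.075 to −2.78 ± 0.050 (SD, n = 3 each), a change of 4.25. *Igll1* minus *Ighm* moved less, by −0.22, so that the surrogate light chain gene fell slightly more than the heavy chain gene.

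The same was done for relatives. *Blk* minus *Lyn* was −0.017 ± 0.16 in control and −0.89 ± 0.052 in treated samples (SD, n = 3 each). *Blk* minus *Lck* changed by −1.97, *Plcg1* minus *Plcg2* by −2.31 and *Zap70* minus *Syk* by 2.32. *Blnk* minus *Syk*, an adaptor and the kinase that phosphorylates it, changed by −0.92. Because the pairs were chosen after the values were seen, their separation follows largely from that choice and tests nothing. In all 10 pairs computed the control and treated samples did not overlap, as for 58.6% of all single genes tested. The exact two-sided permutation p was 0.10, the smallest that 3 samples against 3 can give. The values of the pairs are differences of rlog values, and since they are not corrected for transcript length their size does not rank one gene above another.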
